A study of Mus musculus with 60 samples.

Results

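The comparison is between the proximal piece of the mandible and the proximal piece of the maxilla of the mouse embryo at embryonic day E11.5, each measured on 3 arrays. These 6 arrays are part of a series of 60 arrays in 20 groups, which cover proximal and distal pieces of both jaws from E10.5 to E14.5. The members were chosen by title, and all 18193 genes named by a single symbol were compared, each through its probe set of highest average level across the series. For context, the text also uses the distal mandible and distal maxilla at E11.5 and the proximal mandible and proximal maxilla at E12.5, with 3 arrays per group. Every group comes from C57Bl/6 embryos, and the labels name no mutant allele or agent in any of them. Neither the sex of the embryos nor the borders of the pieces is given, nor whether embryos were pooled. The labels also leave unsaid whether replicates are separate embryos, so p-values measure only the spread between arrays, which may be technical. Total RNA was labelled and hybridised in 1 colour, and every level below is a log2 signal, on which a difference of 1 is a 2-fold change.

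Both jaws grow from the first pharyngeal arch, whose mesenchyme comes mostly from cranial neural crest. Endothelin-1 made in the lower part of the arch acts on crest cells to raise the homeobox genes Dlx5 and Dlx6 and, through them, the basic helix-loop-helix factor Hand2, and mouse embryos without this signal form upper-jaw structures in the place of the lower jaw. The proximal part of the arch lies close to the trigeminal ganglion, the sensory ganglion whose maxillary and mandibular branches supply both jaws.

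All 6 arrays carry batch 3 in their titles. Array medians were 6.25 for proximal mandible replicate 1, 6.12 for replicate 2 and 6.13 for replicate 3, against 6.16, 6.17 and 6.16 in proximal maxilla. Replicate 1 of proximal mandible stood apart: it gave the highest of the 3 mandible values for 61.1% of all genes and the lowest for 21.7%. The median SD over genes was 0.12 in proximal mandible and 0.061 in proximal maxilla. The files hold no detection calls, so a floor of 4.78 was used, the highest 25th percentile of any array. The labels call the tissue of both proximal pieces bone. Of 9 measured bone markers, the mineral-binding Ibsp and Dmp1 and the collagenase Mmp13 had means at or under the floor in both pieces. The osteoblast factor Sp7 read 8.04, 7.02 and 7.28 in proximal mandible, against 6.31, 6.48 and 6.45 in proximal maxilla.

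In the limma fit over all 60 arrays, 5845 of the 18193 genes (32.1%) differed between the proximal pieces at a Benjamini-Hochberg adjusted p under 0.05. Of these, 3901 (21.4%) were higher in proximal mandible and 1944 (10.7%) were lower. Differences of at least 2-fold ran the other way: 611 called genes (3.36%) reached that size, 175 higher (0.962%) and 436 lower (2.4%). The median difference over all genes was 0.064. With the 6 arrays alone, 4460 genes (24.5%) were called, 2806 higher (15.4%) and 1654 lower (9.09%). Without mandible replicate 1, 4798 genes (26.4%) were called, 2679 higher (14.7%) and 2119 lower (11.6%). The 3 mandible values and the 3 maxilla values did not overlap for 7758 genes (42.6%), 5252 higher (28.9%) and 2506 lower (13.8%).

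Hand2 had the largest difference among the leading genes on the mandible side. It read 11.98, 11.40 and 11.64 in proximal mandible, against 6.57, 6.52 and 6.57 in proximal maxilla. All mandible arrays lay far above all maxilla arrays, and the means were 11.67 ± 0.296 and 6.56 ± 0.029 (SD, n = 3 each). The difference was 5.12 ± 0.116 (SE), or 34.7-fold, with an adjusted p of 3.85e-36 by limma. Pitx1, a homeobox factor of the lower jaw and hindlimb, had 11.45, 11.12 and 11.13 in proximal mandible, against 7.19, 7.14 and 7.22 in proximal maxilla. This was a 16.5-fold difference, with no overlap. Tbx4, a T-box factor best known from the hindlimb, read 8.35, 7.72 and 8.09 in proximal mandible, against 5.40, 5.23 and 5.54 in proximal maxilla. Gsc, a homeobox factor needed for parts of the lower jaw and middle ear, read 9.92, 9.98 and 9.99 in proximal mandible, against 7.74, 7.66 and 7.76 in proximal maxilla, a 4.75-fold difference with little spread in either group.

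**Figure D1:**
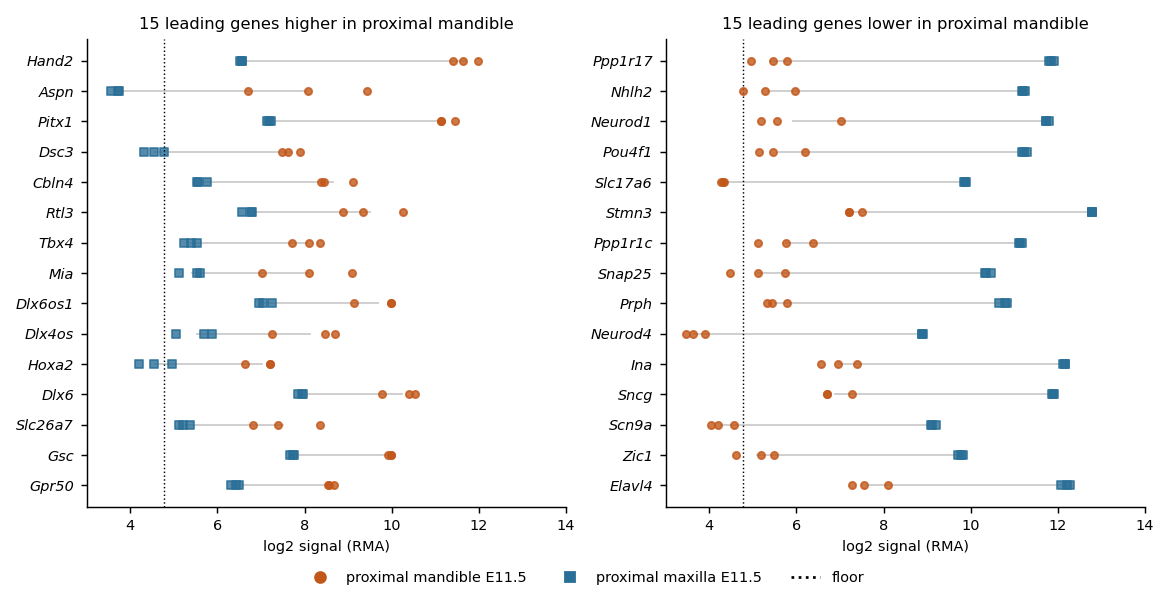
Log2 signals of the 15 genes with the largest differences in each direction, with each of the 3 proximal mandible arrays as a circle and each of the 3 proximal maxilla arrays as a square; the line joins the group means and the dotted line is the floor of 4.78. The groups do not overlap for any gene shown, which the choice required, and the differences on the right panel, up to 6.46 for Ppp1r17, exceed most of those on the left.

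The other leading genes on the mandible side came from several tissues. Opposite-strand transcripts of the Dlx loci were among them: Dlx6os1 was 6.10-fold higher and Dlx4os 6.04-fold higher. Hoxa2, which marks neural crest of the second arch and not of the first, read 6.64, 7.21 and 7.21 in proximal mandible, against 4.95, 4.55 and 4.21 in proximal maxilla, where its mean lay under the floor. It was therefore at least 4.55-fold higher. Dsc3, a desmosomal cadherin of stratified epithelia, was at least 7.36-fold higher, with 7.89, 7.48 and 7.61 in proximal mandible against 4.31, 4.78 and 4.55 in proximal maxilla. Several leading genes were highest in mandible replicate 1. Aspn, a small leucine-rich matrix protein, read 9.42, 6.69 and 8.07 in proximal mandible, against 3.71, 3.73 and 3.55 in proximal maxilla. Mia, a secreted protein of cartilage, read 9.08, 7.03 and 8.10 in proximal mandible, against 5.53, 5.11 and 5.61 in proximal maxilla. Leaving out replicate 1 reduced the differences to 3.71 for Aspn, against 4.40 with it, and to 2.15 for Mia, against 2.65 with it. The anion transporter Slc26a7, the retrotransposon-derived Rtl3, the cerebellin-family Cbln4 and the orphan receptor Gpr50 differed by 2.28, 2.78, 3.04 and 2.17. Rtl3 and Gpr50 lie on the X chromosome, and Xist and Y-linked transcripts also separated the pieces ; the part of sex in these differences was not tested.

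The largest of the leading differences lay on the maxilla side, and most of the 15 leading genes there are known from neurons. Ppp1r17, a phosphatase inhibitor found in neurons, read 5.79, 4.96 and 5.45 in proximal mandible, against 11.85, 11.80 and 11.92 in proximal maxilla. All 3 maxilla arrays were high and nearly equal, and the difference was -6.46 ± 0.379 (SE), which is 87.8-fold. Nhlh2, a neuronal basic helix-loop-helix factor, read 5.97, 4.77 and 5.28 in proximal mandible, against 11.18, 11.20 and 11.24 in proximal maxilla. Slc17a6, the glutamate transporter of synaptic vesicles in sensory neurons, read 4.27, 4.32 and 4.33 in proximal mandible, under the floor, against 9.87, 9.85 and 9.90 in proximal maxilla. It was therefore at least 34.1-fold lower in proximal mandible. Zic1, a zinc finger factor of the dorsal neural tube and periocular mesenchyme, was 25.4-fold lower. The 15 differences ran between -4.53 for the RNA-binding Elavl4 and -6.46 for Ppp1r17.

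The upstream sequences below are shown for some of the leading genes in each direction. The 250 bases before their transcript start hold the hexamer CATCTG on either strand (CAGATG on the other). They were taken in order of difference with candidates also left out by chromosome, so a gene with a larger difference may be missing. The hexamer is a form of the E-box that basic helix-loop-helix factors such as Hand2 and Neurod1 recognise. Capitals mark that hexamer and the homeodomain core TAATTA, which reads the same on both strands; the hexamers do not overlap. Sequences are from RefSeq, build GRCm38.p6, 5′ to 3′ on the plus strand, on which all 4 genes lie. Hand2 is at chr8:57320733-57320982, Tbx4 at chr11:85896515-85896764, Nhlh2 at chr3:102009895-102010144 and Slc17a6, in the window of its 2 that holds the hexamer, at chr7:51624387-51624636.
Hand2: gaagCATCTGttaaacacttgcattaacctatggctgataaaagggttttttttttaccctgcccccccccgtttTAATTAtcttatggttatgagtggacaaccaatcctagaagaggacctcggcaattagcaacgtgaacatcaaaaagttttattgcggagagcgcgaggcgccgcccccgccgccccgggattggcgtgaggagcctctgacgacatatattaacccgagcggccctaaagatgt
Tbx4: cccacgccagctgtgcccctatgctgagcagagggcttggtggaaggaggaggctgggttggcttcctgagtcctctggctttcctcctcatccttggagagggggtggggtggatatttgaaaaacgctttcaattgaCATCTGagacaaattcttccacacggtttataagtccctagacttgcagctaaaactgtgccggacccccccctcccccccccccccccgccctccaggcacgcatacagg
Nhlh2: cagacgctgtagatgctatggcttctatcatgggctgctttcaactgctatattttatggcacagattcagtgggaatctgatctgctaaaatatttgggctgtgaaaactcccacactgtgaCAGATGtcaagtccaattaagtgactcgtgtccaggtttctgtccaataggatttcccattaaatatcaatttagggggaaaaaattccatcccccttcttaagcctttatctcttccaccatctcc
Slc17a6: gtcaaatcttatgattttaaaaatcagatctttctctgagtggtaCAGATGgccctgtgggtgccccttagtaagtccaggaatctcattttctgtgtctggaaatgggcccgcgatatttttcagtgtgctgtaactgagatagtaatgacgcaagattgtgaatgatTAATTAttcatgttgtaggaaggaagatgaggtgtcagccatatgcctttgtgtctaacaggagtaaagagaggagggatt

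Of the leading genes with a window in the RefSeq table, 4 of 11 on the mandible side and 5 of 13 on the maxilla side held CATCTG, and 2 of 11 and 2 of 13 held TAATTA. These genes were counted by any of their windows. Counted in the same way, 16.3% of all 27025 genes in the table held CATCTG and 5.65% held TAATTA, and of all 32851 single windows 14.4% and 4.84% did. These matches are a description of letters in a window and were chosen by the rule above.

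Of the endothelin-Dlx-Hand genes, those from Dlx5 downward were higher in proximal mandible, except Hand1. The ligand and most of its signalling parts were close to equal. Of 16 measured genes of this pathway, 10 were called higher and 1 lower, beside 21.4% higher and 10.7% lower over all genes. The median difference was 0.81, against 0.064 over all genes. With the 6 arrays alone, 8 were higher and none lower, beside 15.4% and 9.09% over all genes. The list contains Dlx genes named above, and all lists were chosen with earlier results of these data known. The ligand Edn1 differed by 0.03 (adjusted p = 0.856, limma) and its converting enzyme Ece1 by 0.05, and neither was called. Among the G proteins and effectors, Gna11 was 0.36 higher and Plcb4 0.17 lower on the log2 scale, and neither Gnaq nor Plcb3 was called. Mef2c, a transcription factor that acts between the signal and the Dlx genes, read 10.05, 8.74 and 9.06 in proximal mandible, against 8.89, 8.84 and 8.90 in proximal maxilla, so the groups overlapped, and its difference was 0.41 with mandible replicate 1 and 0.03 without it. Hand1, the relative of Hand2, differed by 0.06 and was not called.

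Of the 6 Dlx genes, 5 were called higher and none lower, beside 21.4% higher and 10.7% lower over all genes. The median difference was 1.82. Dlx5 read 10.31, 10.96 and 10.89 in proximal mandible, against 8.93, 8.76 and 8.82 in proximal maxilla, a difference of 1.88. Its neighbour Dlx6 read 9.78, 10.54 and 10.39 in proximal mandible, against 7.85, 7.95 and 7.96 in proximal maxilla, a difference of 2.32. In both, mandible replicate 1 was the lowest mandible array and still lay above every maxilla array. The pair Dlx3 and Dlx4, which are expressed in the lower arch within the domain of Dlx5 and Dlx6, differed by 1.91 and 1.76. Dlx2, used in both jaws, read 8.80, 9.63 and 9.57 in proximal mandible, against 8.87, 8.81 and 8.88 in proximal maxilla: its groups overlapped through mandible replicate 1, its difference was 0.48 with that array and 0.75 without it, and it was not called with the 6 arrays alone (adjusted p = 0.116, limma). Dlx1 differed by 0.25 and was not called. Mandible replicate 1 was the lowest of the 3 mandible arrays for all 6 Dlx genes.

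**Figure D2:**
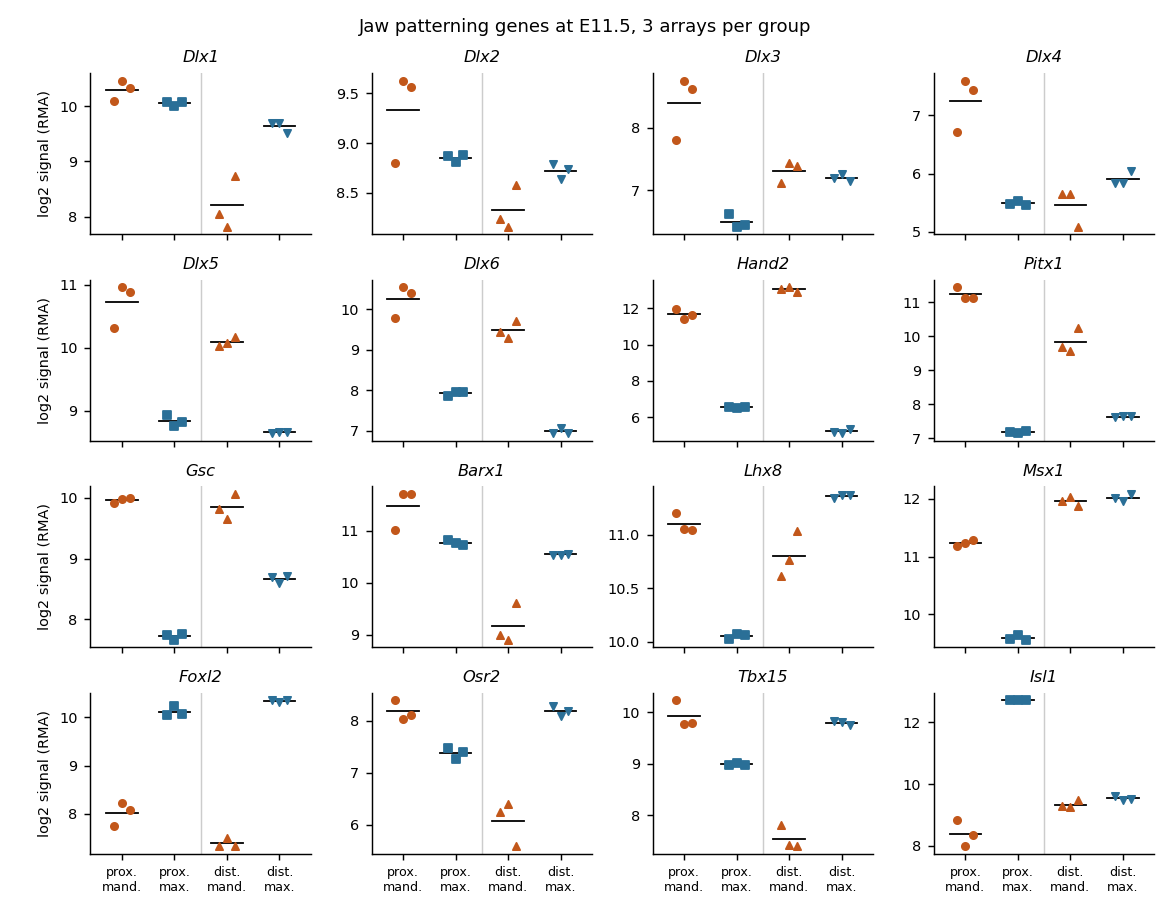
Log2 signals of 16 jaw patterning genes at E11.5 in proximal mandible, proximal maxilla, distal mandible and distal maxilla, with 3 arrays per group as points and the group mean as a bar; each panel has its own y axis. Dlx5, Dlx6, Hand2, Pitx1 and Gsc are higher in mandible in both positions, whereas Barx1, Lhx8, Osr2 and Tbx15 are higher in mandible in the proximal pieces and lower in mandible in the distal pieces.

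Transcription factors of the lower jaw outside the Dlx code were split. Of 11 measured, 7 were called higher, 2 lower and 2 were not called, beside 21.4% higher and 10.7% lower over all genes. The median difference was 0.83. Beside Pitx1 and Tbx4, the higher ones were Msx1 (1.64), Lhx8 (1.04), Foxf1 (0.97), Lhx6 (0.83) and Barx1 (0.71). Msx1, a homeobox factor of jaw and tooth mesenchyme, read 11.19, 11.23 and 11.29 in proximal mandible, against 9.58, 9.64 and 9.56 in proximal maxilla, with small spread in both. Its relative Msx2 read 8.60, 8.36 and 8.46 in proximal mandible, against 9.0, 9.04 and 8.99 in proximal maxilla, and had an adjusted p of 0.0617 by limma over 60 arrays and 0.0014 with the 6 arrays alone. Foxf2, a forkhead factor, was lower with 6.75, 7.39 and 7.30 in proximal mandible, against 8.14, 8.11 and 8.11 in proximal maxilla. Isl1, which is expressed in early lower-jaw epithelium and also in sensory neurons, was lower by a much larger margin, with 8.84, 7.98 and 8.34 in proximal mandible, against 12.72 in all 3 proximal maxilla arrays.

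Genes known as regulators of the maxilla and palate were mostly not called. Of 18 measured, 6 were called higher in proximal mandible, 1 lower and 11 were not called, beside 21.4% higher and 10.7% lower over all genes, so the list lay near the background. Its median difference was 0.09, and without mandible replicate 1 it had 5 higher and 2 lower. Foxl2, a forkhead factor of the maxillary and periocular mesenchyme, was the 1 lower gene, with 7.75, 8.23 and 8.08 in proximal mandible, against 10.05, 10.22 and 10.06 in proximal maxilla. Its difference was -2.09 ± 0.094 (SE), a 4.25-fold lower level. The odd-skipped factor Osr1 was 1.52 higher, and Osr2, its relative needed for palate growth, 0.80 higher. Tbx15, a T-box factor of craniofacial mesenchyme, read 10.23, 9.76 and 9.79 in proximal mandible, against 8.98, 9.01 and 8.97 in proximal maxilla. Pax9 and Six2 were higher by 0.47 and 0.36. Pax3 differed by 0.53 with mandible replicate 1 and by 0.23 without it, and its groups overlapped. Pou3f3, Irx3, Irx5, Shox2, Tbx22, Nr2f1, Nr2f2 and Tfap2b differed by between -0.24 and 0.18 and were not called.

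Factors of the frontonasal and periocular mesenchyme were lower in proximal mandible or not called. Of 11 measured, none was called higher and 7 were called lower, with a median difference of -0.96. Zic2, a relative of Zic1, read 4.37, 4.62 and 4.32 in proximal mandible, under the floor, against 7.89, 8.12 and 8.07 in proximal maxilla. Alx1, a homeobox factor of the upper face, read 8.63, 7.48 and 7.54 in proximal mandible, against 9.36, 9.30 and 9.30 in proximal maxilla. The phosphatase and coactivator Eya2 and the forkhead factor Foxp2 were lower by differences of -1.39 and -0.96. Markers of the eye moved in the same direction: 6 of 14 eye and lens genes were lower and none was higher. Among them, the optic factor Six6 read 4.19, 3.93 and 4.0 in proximal mandible, against 7.34, 7.08 and 7.26 in proximal maxilla, and the lens crystallin Cryba1 read 4.63, 4.34 and 4.06 against 7.70, 7.61 and 7.77. The eye field gene Pax6 differed by -0.03 and was not called. Of 7 pigment cell markers, 4 were lower and none was higher: the melanogenic enzyme Dct read 5.60, 5.51 and 5.80 in proximal mandible, against 7.46, 7.33 and 7.34 in proximal maxilla. Of 10 forebrain and olfactory markers, 1 was higher and 3 were lower. Of 10 inner ear markers, none was higher and 2 were lower, Sox2 (-1.46) and Gata3 (-1.02). Over all genes, 21.4% were higher and 10.7% lower. The share of each comparison set by eye, pigment or brain cells was not tested.

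Markers of sensory ganglion neurons were lower in proximal mandible throughout. All 26 measured markers were called lower in the fit over 60 arrays and with the 6 arrays alone, 25 of them by at least 2-fold, with a median difference of -4.20. Over all genes, 10.7% were lower in the fit over 60 arrays and 9.09% with the 6 arrays alone. Pou4f1, the POU factor of sensory neurons, read 6.19, 5.14 and 5.45 in proximal mandible, against 11.21, 11.18 and 11.28 in proximal maxilla. Peripherin, encoded by Prph, an intermediate filament of peripheral neurons, was 37.9-fold lower, and Neurod4, at or under the floor in all mandible arrays, was at least 17.2-fold lower. Gap43, the growth cone protein, had a smaller difference of -1.87 from higher levels of 10.82, 10.27 and 10.39 in proximal mandible, against 12.35, 12.36 and 12.36 in proximal maxilla. The smallest difference in the list was -0.42. Summed over the list on the linear scale, signal was 7771 in mandible replicate 1 and 4523 in the lowest mandible array, against 80017 to 80938 in proximal maxilla. In bulk tissue, fewer cells of a type and less RNA per cell cannot be told apart.

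Glial and related genes followed the neurons. All 9 measured markers of Schwann cells and crest-derived glia were called lower, with a median of -1.19. Fabp7, a fatty acid binding protein of glia, read 9.62, 9.27 and 9.40 in proximal mandible, against 13.59, 13.64 and 13.62 in proximal maxilla, an 18.2-fold lower level. Sox10, the crest and glial factor, differed by -1.60, and the endothelin receptor Ednrb by -2.27. Of 14 Notch pathway genes, 2 were called higher and 8 lower, with a median of -0.48, beside 21.4% higher and 10.7% lower over all genes. The Notch targets Heyl (-1.85), Hes5 (-1.37) and Nrarp (-0.90) and the ligands Dll3 (-1.39) and Dll1 (-0.95), all expressed in neurogenic tissue, were among the lower ones. Of 13 neurotrophic ligands and receptors, 3 were higher, near the 21.4% of all genes that were higher, and 4 were lower. The ligand Ntf5 (neurotrophin 4) was higher, with 8.36, 8.21 and 8.25 in proximal mandible, against 7.0, 7.01 and 7.18 in proximal maxilla, while the receptors Ngfr, Gfra1 and Gfra3 were lower by differences of -1.19, -1.09 and -0.62.

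**Figure D3:**
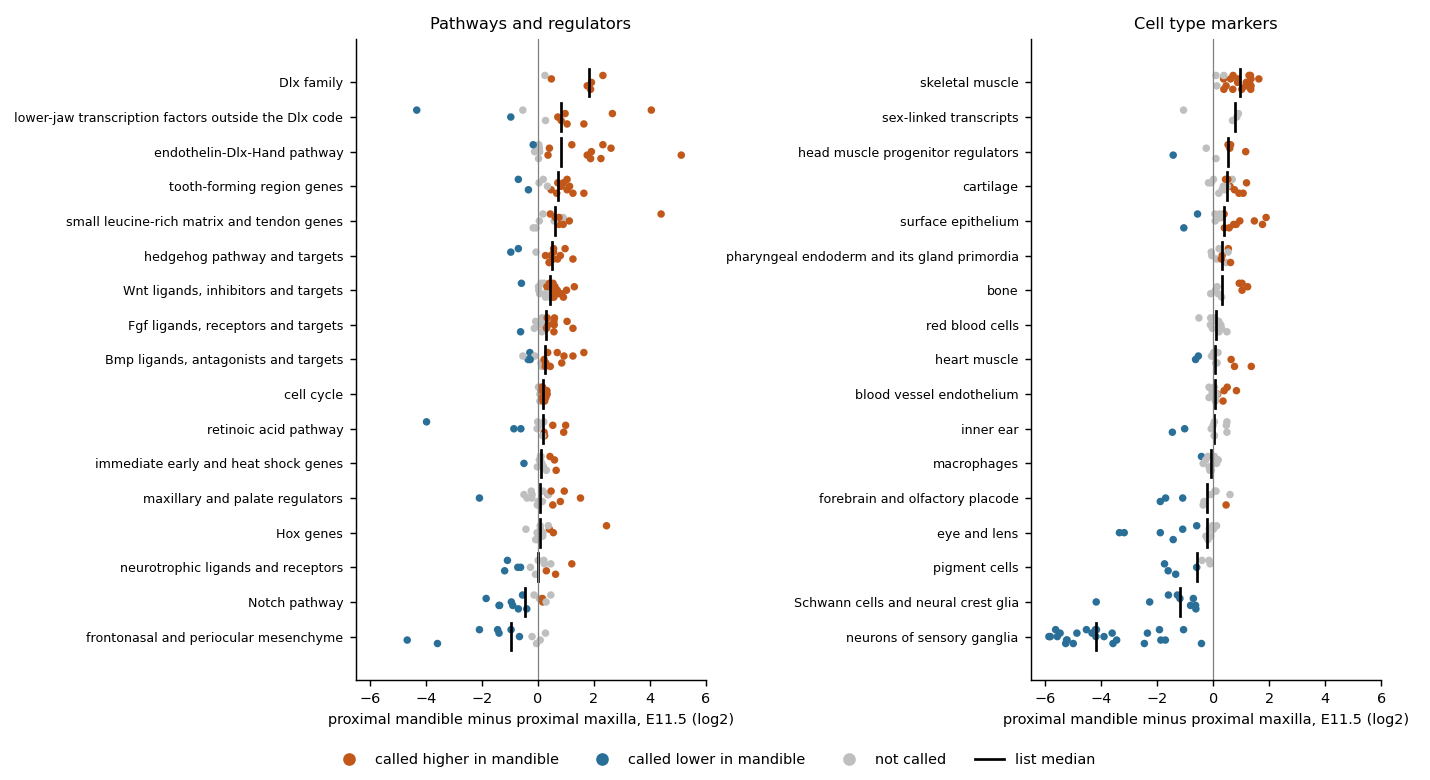
Difference between proximal mandible and proximal maxilla at E11.5 for every measured member of 34 gene lists, 17 of pathways and regulators on the left and 17 of cell types on the right; points are genes, black bars are list medians, and colour gives the limma call over 60 arrays. The Dlx genes lie farthest to the right by median (1.82) and the sensory neuron markers farthest to the left (-4.20).

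Genes of the hedgehog, Bmp, Fgf and Wnt lists were more often called higher than lower in proximal mandible, by smaller amounts. The shares over all genes were 21.4% higher and 10.7% lower. Of 14 hedgehog pathway genes, 11 were higher and 2 lower, with a median of 0.51. The list includes coreceptors and genes of other lists, so its count is not a measure of signalling output. The transcriptional effectors Gli1, Gli2 and Gli3 were 0.55, 0.41 and 0.56 higher, and the coreceptor Cdon 0.70 higher. The receptor and target Ptch1 differed by -0.07 and was not called. The ligand Shh itself went the other way, with 8.54, 8.75 and 8.80 in proximal mandible, against 9.42, 9.43 and 9.34 in proximal maxilla (Shh was picked after its values were seen).

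Of 19 Bmp genes, 11 were higher and 3 lower, with a median of 0.26. Without mandible replicate 1, 9 were higher and 3 lower. Bmp4, an epithelial and mesenchymal signal of the arch, read 10.97, 10.18 and 10.31 in proximal mandible, against 9.21, 9.21 and 9.28 in proximal maxilla. The receptor Bmpr1b and the antagonist Grem1 were 0.85 and 0.93 higher. The listed targets Id1 and Id3 went the other way (picked after their values were seen). Id1 read 11.44, 11.37 and 11.42 in proximal mandible, against 11.67, 11.67 and 11.74 in proximal maxilla. Id3 read 12.02, 12.10 and 12.15 in proximal mandible, against 12.39, 12.32 and 12.40 in proximal maxilla. Of 19 Fgf genes, 10 were higher and 1 lower, with a median of 0.28. Leaving out mandible replicate 1, the highest mandible array for 15 of the 19, gave 7 higher and 2 lower. Over all genes, 14.7% were higher and 11.6% lower without that array. Fgf8, made by proximal arch epithelium, read 7.19, 6.75 and 7.14 in proximal mandible, against 6.24, 5.70 and 6.02 in proximal maxilla. Fgf10, a mesenchymal ligand, differed by 1.25, and the feedback inhibitor Spry1 by 0.59, while the feedback phosphatase Dusp6 differed by -0.13 and was not called.

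Of 25 Wnt pathway genes, 14 were higher and 1 lower, with a median of 0.43. Rspo2, which strengthens Wnt signalling, averaged 10.98 in proximal mandible and 9.68 in proximal maxilla, a difference of 1.30 ± 0.060 (SE) with no overlap between the groups. The nuclear effector Lef1 was 0.91 higher and the feedback target Axin2 0.60 higher, and neither overlapped between the groups. The secreted inhibitors Sfrp1 and Sfrp2 differed by 0.11 and 0.02 and were not called. Without mandible replicate 1, 9 Wnt genes were higher and 1 lower. Genes of the tooth-forming region, which include several of the factors above, counted 10 higher and 2 lower of 15. Their median was 0.71, and 21.4% of all genes were higher and 10.7% lower. Sostdc1, a Bmp and Wnt antagonist of tooth-forming mesenchyme and epithelium, was 1.13 higher.

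Retinoic acid genes were split. Of 13 measured, 5 were higher and 3 lower, beside 21.4% higher and 10.7% lower over all genes. Aldh1a1, a retinoic acid synthesis enzyme, read 4.61, 4.47 and 4.35 in proximal mandible, under the floor, against 8.42, 8.39 and 8.55 in proximal maxilla, at least 12.8-fold lower. The binding protein Crabp1 read 12.43, 12.34 and 12.39 in proximal mandible, against 12.97, 12.98 and 13.02 in proximal maxilla. Cyp26b1, which degrades retinoic acid, read 9.61, 9.63 and 9.75 in proximal mandible, against 8.68, 8.67 and 8.66 in proximal maxilla, and the retinol dehydrogenase Rdh10 was 0.92 higher. Of 13 Hox genes, 3 were higher and none lower, near the 21.4% of all genes that were higher: Hoxa2, Hoxd3 (0.55) and Hoxa3 (0.41). Without mandible replicate 1, 3 were higher and 1 lower. Of 19 cell cycle genes, 15 were higher and none lower, all by little. The largest among the named ones was 0.32 for the replication licensing factor Cdc6, and the median was 0.17.

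Skeletal muscle markers were higher by the fit over 60 arrays, but many of the calls depended on mandible replicate 1. Of 22 measured, 19 were called higher and none lower, with a median of 0.95, beside 21.4% higher and 10.7% lower over all genes. The count fell to 7 higher without replicate 1, where the median was 0.57 and 14.7% of all genes were higher. It fell to 3 with the 6 arrays alone, replicate 1 included, where 15.4% of all genes were higher. Klhl41, a sarcomere-associated protein, read 8.75, 6.50 and 7.51 in proximal mandible, against 5.90, 5.93 and 6.03 in proximal maxilla. Actc1, an early sarcomeric actin, read 13.24, 11.37 and 12.13 in proximal mandible, against 11.03, 11.16 and 11.06 in proximal maxilla. Without replicate 1 the differences were 1.05 for Klhl41, against 1.63 with it, and 0.67 for Actc1, against 1.16 with it. The myogenic factor Myf5 differed by 0.10 and was not called. Summed signal over the list was 30131 in mandible replicate 1 and 7921 in the lowest mandible array, against 6782 to 6972 in proximal maxilla. Small leucine-rich matrix and tendon genes showed the same dependence: 7 of 13 were called higher and none lower, against 4 higher and 1 lower without replicate 1, which was the highest mandible array for all 13.

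**Figure D4:**
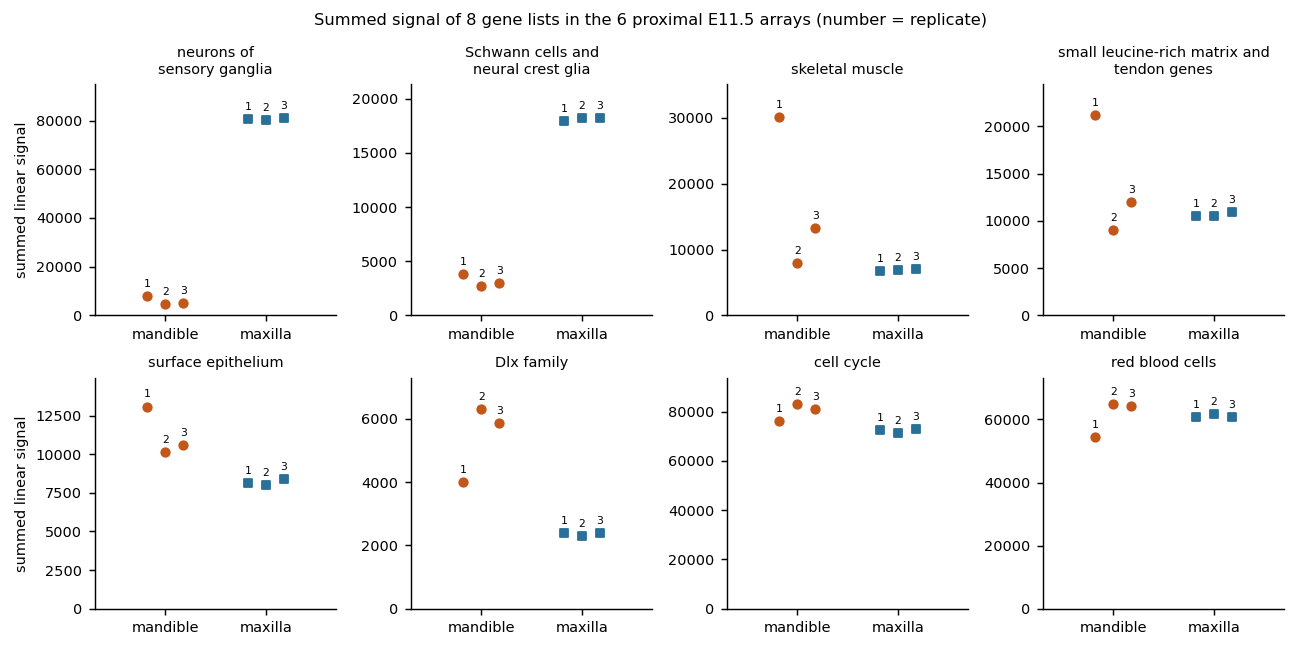
Linear signal summed over the measured members of 8 gene lists in the 3 proximal mandible arrays and the 3 proximal maxilla arrays, with the replicate number above each point and every y axis starting at 0. Replicate 1 of proximal mandible is the highest mandible array for neuron, glia, muscle, matrix and epithelium lists and the lowest for Dlx, cell cycle and red blood cell lists, whereas the 3 maxilla arrays nearly coincide.

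Markers of surface epithelium were mostly higher in proximal mandible. Of 17 measured markers, 10 were higher and 2 lower, beside 21.4% higher and 10.7% lower over all genes. The median difference was 0.39. The higher ones included keratins of basal stratified epithelium: Krt14 read 10.59, 9.21 and 9.57 in proximal mandible, against 8.14, 7.89 and 8.05 in proximal maxilla, and Krt15 and Krt5 were 1.89 and 1.47 higher. Their regulator Trp63 read 9.91, 9.65 and 9.64 in proximal mandible, against 8.84, 8.76 and 8.76 in proximal maxilla. Krt8, a keratin of simple epithelium, went the other way, with no overlap and a difference of -1.05, and the other lower gene was its partner Krt18 (-0.56), named after its values were seen. The adhesion gene Cdh1 was not called. Mandible replicate 1 was the highest mandible array for 12 of the 17 markers. Without it, 9 were higher and 2 lower.

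Markers of the remaining tissues gave these counts, beside 21.4% higher and 10.7% lower over all genes. Of 16 cartilage genes, 7 were higher and none lower, among them Matn4 (1.19), Acan (1.07) and Sox6 (0.60), and 5 were higher without mandible replicate 1, where Matn4 differed by 0.66. Of 9 bone genes, 4 were higher and none lower, 2 without replicate 1. Of 7 head muscle progenitor regulators, 4 were higher and 1 lower, including Tcf21 (1.16) and Tbx1 (0.62). Heart muscle markers gave 3 higher and 2 lower of 12, or 2 higher and 1 lower without mandible replicate 1, and 4 of the 12 had both means at or under the floor. Pharyngeal endoderm markers gave 4 higher of 10, or 2 without that array. Endothelial markers gave 5 higher of 13, led by the ETS factor Erg (0.83), but 4 higher and 3 lower without that array, and macrophage markers gave none higher and 1 lower of 13, the receptor Csf1r (-0.42). None of 11 red blood cell markers was called by limma over 60 arrays, and 1 was higher with the 6 arrays alone. Immediate early and heat shock genes gave 3 higher and 1 lower of 12, close to the shares over all genes, or 2 higher and 1 lower without mandible replicate 1.

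The sex-linked transcripts separated the groups, although none of the 4 measured was called over 60 arrays. Xist, transcribed from the inactive X chromosome, read 10.37, 10.61 and 10.94 in proximal mandible, against 11.70, 11.67 and 11.72 in proximal maxilla (adjusted p = 0.331 over 60 arrays and 0.000518 with the 6 arrays alone, limma). The Y-linked Kdm5d read 8.38, 8.21 and 8.16 in proximal mandible, against 7.31, 7.44 and 7.46 in proximal maxilla. The part of these values in other differences was not tested.

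The proximal jaw difference was set against the distal one, at the same age and in the same batch, by testing the difference between them. In the distal pieces, 4681 genes (25.7%) differed between the jaws, 2050 lower in distal mandible (11.3%) and the rest higher. Of the 5845 genes called in the proximal pieces, 1674 were also called in the same direction in the distal pieces, which is 28.6% of the proximal and 35.8% of the distal calls, and 671 were called in the opposite direction. For called differences of at least 2-fold, 91 genes were shared in direction, 14.9% of the proximal and 30.7% of the distal ones. The jaw difference itself depended on position for 4413 genes (24.3%), 2533 with a higher proximal than distal difference (13.9%) and 1880 with a lower one (10.3%). With each array centred on its median, these counts were 4024 and 1565.

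Hand2 and Pitx1 took opposite courses along the jaw. The jaw difference for Hand2 was 5.12 in the proximal pieces and 7.79 in the distal pieces, since Hand2 averaged 11.67 in proximal mandible and 6.56 in proximal maxilla, and 13.03 in distal mandible and 5.24 in distal maxilla. For Pitx1 the jaw difference was 4.05 proximally and 2.19 distally, and for Gsc 2.25 and 1.18. The position term was -2.68 for Hand2 (adjusted p = 4.15e-18), 1.85 for Pitx1 (6.22e-13) and 1.07 for Gsc (0.00635), by limma. The jaw differences of Dlx5 (1.88 proximally, 1.43 distally) and Dlx6 (2.32 and 2.49) had no called position term. Dlx3 and Dlx4 did: Dlx3 differed by 1.91 proximally and 0.12 distally, and Dlx4 by 1.76 and -0.45.

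For the maxillary and palate regulators the jaw difference depended on position. In the distal pieces, 3 of the 18 were higher in mandible and 13 lower, with a median of -1.01, against 6 higher, 1 lower and 0.09 in the proximal pieces. The position term was called for 13 of the 18, 12 higher and 1 lower, beside 13.9% higher and 10.3% lower over all genes. Tbx15 read 7.81, 7.42 and 7.40 in distal mandible, against 9.83, 9.81 and 9.75 in distal maxilla, so its jaw difference was 0.94 proximally and -2.25 distally, a position term of 3.19 ± 0.340 (SE). Osr2 (0.80 and -2.12) and its neighbours in the list Shox2 (0.18 and -2.15) and Pou3f3 (-0.24 and -1.71) behaved alike. Foxl2 kept its direction, at -2.09 proximally and -2.94 distally. Foxd1 was the gene with a lower term, at -0.39 proximally, where mandible replicate 1 lay well below its mates, and 2.31 distally.

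Genes of the proximal tooth-forming region also turned with position. Barx1, which marks molar-forming mesenchyme, differed by 0.71 proximally and -1.37 distally, Lhx8 by 1.04 and -0.56, Lhx6 by 0.83 and -1.03, and Fgf8 by 1.04 and -1.71. The terms were between 1.60 for Lhx8 and 2.75 for Fgf8, all called. Of the 15 genes in that list, 11 had a higher term and 2 a lower one. Over all genes, 13.9% had a higher position term and 10.3% a lower one. Wnt genes gave 15 higher and 1 lower terms of 25: Lef1 differed by 0.91 proximally and -0.97 distally. Surface epithelium gave 13 higher and none lower of 17, with Krt14 at 1.76 proximally and 0.00 distally.

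Among the genes with the largest called position terms, Chodl, Aldh1a3, Tbx15, Dlx1as, Tbx18 and Osr2 had higher terms. Chodl, a membrane C-type lectin, varied widely between mandible arrays, with 9.50, 7.55 and 8.26 in proximal mandible, against 6.31, 6.42 and 6.30 in proximal maxilla, and 6.59, 8.79 and 6.03 in distal mandible, against 8.92, 8.81 and 8.89 in distal maxilla. Aldh1a3, another retinoic acid synthesis enzyme, was lower in mandible in both positions, by -0.86 proximally and -4.14 distally. Tbx18, a T-box factor, read 10.29, 9.90 and 9.89 in proximal mandible, against 8.65, 8.73 and 8.70 in proximal maxilla, and was lower in mandible distally (-1.74).

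Of the 6 genes with the largest lower terms, most are known from neurons. The sensory neuron list gave 24 lower terms and none higher of 26, since its median difference was -4.20 proximally and -0.54 distally. Over all genes, 10.3% had a lower position term and 13.9% a higher one. Nhlh2 differed by -5.87 proximally and by -0.14 distally, with 6.86, 6.35 and 6.56 in distal mandible, against 6.74, 6.66 and 6.80 in distal maxilla. Hivep3, a zinc finger gene, read 5.49, 5.12 and 4.63 in proximal mandible, against 9.37, 9.22 and 9.31 in proximal maxilla, with a distal difference of 0.74. Doublecortin (Dcx), an X-linked gene of migrating neurons, differed by -3.58 proximally and 1.10 distally, and the tachykinin gene Tac2 by -2.67 and 2.01. Skeletal muscle markers gave 13 lower terms and none higher of 22: the Myf5 jaw difference was 0.10 proximally and 4.23 distally.

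**Figure D5:**
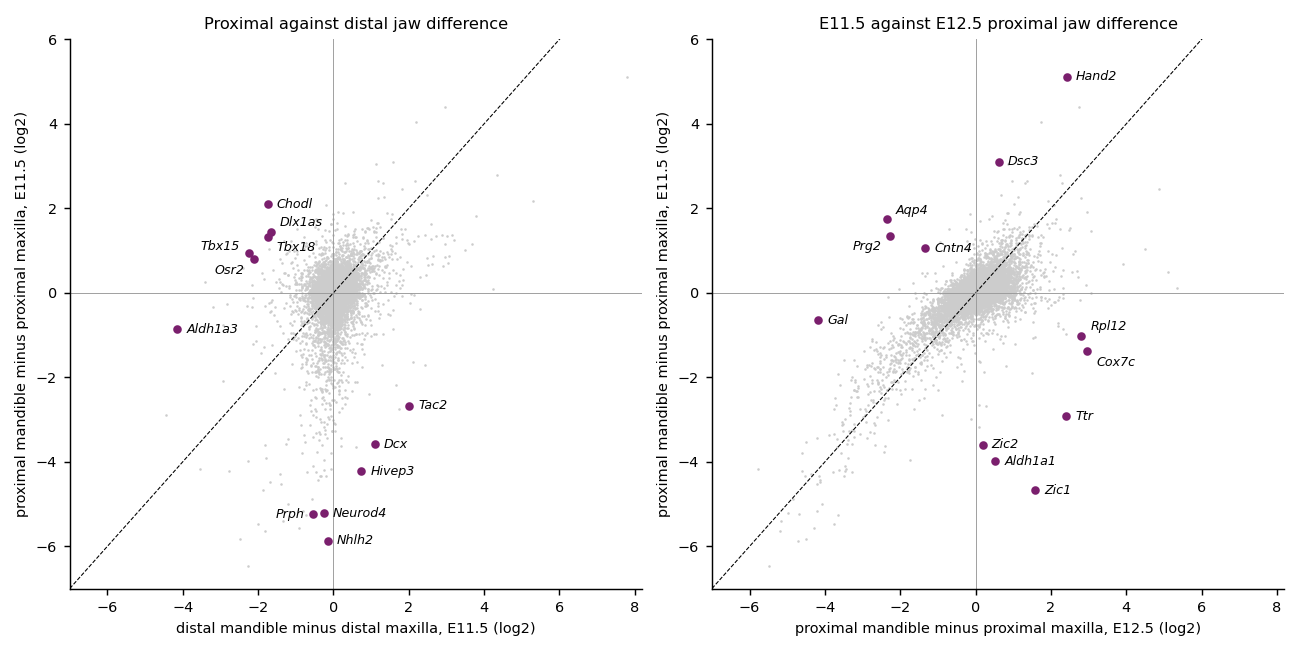
Proximal jaw difference at E11.5 (y axis, log2) of all 18193 genes against the distal jaw difference at E11.5 (left) and the proximal jaw difference at E12.5 (right); grey points are genes, purple points are the 6 genes per direction with the largest called term, and the dashed line marks equal differences. On the left the purple points with lower terms have distal differences from -0.53 for Prph to 2.01 for Tac2. On the right most of the lowest genes lie near the dashed line.

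A day later, at E12.5, many of the genes called at E11.5 were called again in the proximal pieces. At E12.5, 7938 genes (43.6%) differed between the proximal pieces, 4906 higher in mandible (27%) and 3032 lower (16.7%). Of the genes called at E11.5, 3652 were called in the same direction at E12.5, 62.5% of the E11.5 and 46% of the E12.5 calls, and 380 were opposite. For called differences of at least 2-fold, 446 were shared in direction, 73% of the E11.5 and 44.2% of the E12.5 ones. The jaw difference changed with age for 4258 genes (23.4%), 2019 upward (11.1%) and 2239 downward (12.3%). The E12.5 arrays carry batch 2 and the E11.5 arrays batch 3, so age and batch cannot be told apart in this term.

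Several leading lower-jaw genes kept their direction at E12.5 with smaller differences, while Gbx2 and Foxf2, which are not leading genes, changed direction. Hand2 read 10.19, 10.19 and 10.03 in proximal mandible at E12.5, against 7.75, 7.63 and 7.74 in proximal maxilla, so its jaw difference was 2.43 at E12.5 and 5.12 at E11.5. The jaw differences of Pitx1 were 1.73 at E12.5 and 4.05 at E11.5, of Dlx6 0.67 and 2.32, and of Tbx4 0.97 and 2.66, each with a called age term. At E12.5, 27% of all genes were higher and 16.7% lower, and 12.3% had a lower age term and 11.1% a higher one. Of the 16 endothelin-Dlx-Hand genes, 7 were higher in mandible at E12.5 and 3 lower, against 10 higher and 1 lower at E11.5. Among them, 7 had a lower age term and none a higher one. Gbx2, a homeobox gene of the list, differed by -0.95 at E12.5 and 1.21 at E11.5, and Foxf2 by 0.56 at E12.5 and -0.97 at E11.5, both with a called term. Gsc (2.81 at E12.5, 2.25 at E11.5) and Dlx4 (2.13 and 1.76) had no called term. Hoxa2 went the other way and read 9.99, 10.07 and 9.99 in proximal mandible at E12.5, against 5.13, 5.22 and 5.08 in proximal maxilla. The sensory neuron list stayed low, with 25 of 26 lower at E12.5 and a median of -3.63. Of 22 skeletal muscle markers, 20 were higher at E12.5 and none lower, with a median of 1.02, beside 27% higher over all genes.

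The low levels of Zic1 and Zic2 in proximal mandible were not seen at E12.5. Zic1 read 10.91, 11.25 and 10.97 in proximal mandible at E12.5, against 9.43, 9.38 and 9.57 in proximal maxilla, so its jaw difference was 1.58 at E12.5 and -4.67 at E11.5. The jaw difference of Zic2 was 0.19 at E12.5 and -3.59 at E11.5. The carrier Ttr, known from choroid plexus and liver, differed by 2.41 at E12.5 and -2.92 at E11.5. Aldh1a1 differed by 0.52 at E12.5 and -3.98 at E11.5. Rpl12 and Cox7c, a ribosomal and a mitochondrial protein gene, differed by 2.81 and 2.97 at E12.5, and by -1.01 and -1.38 at E11.5. In the other direction, the neuropeptide gene Gal differed by -4.18 at E12.5 and -0.65 at E11.5, and the water channel gene Aqp4 by -2.36 at E12.5 and 1.75 at E11.5. Simple epithelial Krt8 differed by 1.58 at E12.5 and -1.05 at E11.5, with 8.89, 8.76 and 8.82 in proximal mandible at E12.5, against 7.39, 7.34 and 6.99 in proximal maxilla.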

How the data were processed

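Total RNA from embryonic jaw pieces was measured on 60 1-colour Affymetrix arrays. Values are log2 signals that the authors deposited, made with RMA per the submitters' processing notes (version not given in the sources used here); RMA corrects background, normalizes arrays and summarizes probes, so its scaling sets every difference. They were used as deposited. Probe sets with a single symbol in the platform annotation (34945 of 45101) gave 18193 genes. limma 3.58.1 (R 4.3.3) fitted 20 group means over 60 arrays (40 residual degrees of freedom) with trended eBayes and Benjamini-Hochberg adjustment over all genes. The test was checked on simulated data in which each gene had the same spread in every group. That check does not cover groups of unequal spread, such as proximal mandible and proximal maxilla here. Groups came from the titles. Leading genes were the 15 largest differences per direction called over 60 and over 6 arrays, with no overlap, a mean of at least 6 in the higher group, not predicted models, and without Xist, Tsix and Y-linked transcripts (other X-linked genes stayed in); for position and age terms, the 6 largest per direction. In lists, up to 6 called members of smallest p and 3 uncalled of highest mean could be named, and all of the patterning lists. Members and lists were chosen with earlier results of these data known. A fold with the dimmer group at or under the floor was taken against the floor and is a lower bound. Replicate numbers were not used to pair arrays in the main fit. Same-numbered arrays of the proximal pieces had deviations correlated at 0.02, 0.08 and 0.04, and differently numbered ones at -0.06 to 0.03. With so few arrays, these values cannot show whether same-numbered arrays share embryos, which the labels do not say. Proximal and distal pieces were not compared in this way. Precision is limited by 3 arrays per group. Alternatives were fewer arrays, other scaling, dim genes left out, other probe set rules, array weights, replicate blocks, stricter thresholds and single replicates left out.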

Additional observations from a re-analysis of the deposited data

Results flagged for a closer look

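The jaw difference depended on position for 4413 genes and on age for 4258, each by a direct test of the difference. The position terms (proximal minus distal, log2) were 3.83 for Chodl, 3.28 for Aldh1a3, 3.19 for Tbx15, 3.11 for Dlx1as, 3.07 for Tbx18 and 2.92 for Osr2. On the other side they were -5.72 for Nhlh2, -4.96 for Hivep3, -4.96 for Neurod4, -4.72 for Prph, -4.68 for Dcx and -4.67 for Tac2. Dlx1as, an antisense transcript of the Dlx1 locus, read 9.04, 10.92 and 10.76 in proximal mandible, against 8.71, 8.80 and 8.85 in proximal maxilla, so mandible replicate 1 lay near the maxilla arrays.

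The age terms (E12.5 minus E11.5) were 6.25 for Zic1, 5.33 for Ttr, 4.5 for Aldh1a1, 4.35 for Cox7c, 3.82 for Rpl12 and 3.78 for Zic2, and -4.1 for Aqp4, -3.62 for Prg2, -3.53 for Gal, -2.68 for Hand2, -2.5 for Dsc3 and -2.4 for Cntn4. All of these terms were called by limma with adjustment over all genes, and age cannot be told apart from batch in them.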

How the results depend on the processing

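Counts are given as higher and lower genes of the jaw, position and age differences, which were 3901 and 1944, 2533 and 1880, and 2019 and 2239. Changes over 1.5 times were these. The arrays of the compared groups alone gave 1539 higher position terms. Centring gave 4024 higher position terms. Every probe set as a unit gave 6263 and 3130 for the jaw, 3074 lower position terms and 4133 lower age terms. Array quality weights gave 2944 lower jaw genes and 3497 higher age terms. A 2-fold minimum gave 175 and 436, 188 and 502, and 253 and 127. An adjusted p under 0.01 gave 1662 higher position terms. Leaving out single replicates gave 2679 to 4085 higher and 1675 to 2119 lower jaw genes, 2030 to 3455 and 1651 to 2261 position terms, and 1665 to 2504 and 1905 to 2344 age terms. The 5 arrays left without mandible replicate 1, a setting chosen after seeing the data, gave 3891 and 2808. With the replicate number as a block, the jaw counts were 3964 and 1983 (fixed) or 3812 and 1915 (random).

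Of 5623 values for 291 named gene and contrast pairs under 31 settings, 5311 kept direction and call, 311 lost the call, and 1 reversed: Plcb4, at 0.04 when a gene's probe sets were averaged. The causes were not tested. Among called genes, 36 had another probe set called the opposite way, and 72 of the 2-fold genes had the dimmer group at or under the floor, where signal limits the fold.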

Other observations

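Oc90, the main protein of otoconia in the inner ear, was not called at E11.5, with 6.12, 6.65 and 6.62 in proximal mandible, against 6.14, 5.77 and 6.01 in proximal maxilla. At E12.5 it read 11.14, 10.99 and 11.16 in proximal mandible, against 6.01, 6.00 and 5.98 in proximal maxilla. Of 10 inner ear markers, 6 were higher and 1 lower at E12.5, against none higher and 2 lower at E11.5. Over all genes, 27% were higher and 16.7% lower at E12.5, against 21.4% and 10.7% at E11.5. Cartilage genes gave 12 higher and none lower of 16 at E12.5, with a median of 1.08, against 7 higher, none lower and 0.48 at E11.5. Oc90 was chosen after its values were seen.

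Myf5, the myogenic factor, read 8.50, 7.75 and 7.97 in proximal mandible and 7.99, 7.98 and 7.95 in proximal maxilla. In the distal pieces it read 8.74, 8.58 and 9.49 in mandible and 5.0, 4.52 and 4.58 in maxilla. Distal maxilla was the low group of the 4 at E11.5.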
